A study of Mus musculus with 20 samples.

Results

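The subcortical maternal complex is a protein assembly under the plasma membrane of the mammalian oocyte and early embryo. It was followed here, together with the oocyte histone chaperone gene Npm2, in ribosome-bound mRNA and in total RNA of mouse oocytes between prophase I and metaphase I. The genes were taken by symbol from the 2 deposited tables: Nlrp5, Nlrp2, Tle6, Ooep, Khdc3, Padi6 and Npm2. Of these 7 genes, 6 were listed in both tables, among 7543 genes in the ribosome-bound table and 7917 in the total RNA table (7346 in both). Khdc3 was listed in neither and was not analysed here.

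The oocytes came from C57BL/6 females, 3 weeks old, that carried Zp3-Cre and RiboTag, an allele that puts an HA tag on a ribosomal protein in cells where Cre has acted. The Zp3 promoter drives Cre in growing oocytes, so the pull-down through the tag takes oocyte ribosomes. Every group shared this genotype, a 5 IU dose of PMSG given 44 h before collection, and a hold in 1 µM cilostamide, a phosphodiesterase 3 inhibitor that keeps oocytes in prophase. Denuded oocytes were pooled, 200 per sample, at 0 h (prophase I) and at 2, 4, 6 and 8 h after release (early, mid and late prometaphase I, then metaphase I). There were 20 libraries, 2 for each RNA kind and time. No library from untagged oocytes was analysed here. The labels do not say whether replicates came from separate animals or cultures, so p-values measure only the spread between these samples.

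NLRP5 (also called MATER), OOEP (FLOPED), TLE6 and KHDC3 (FILIA) are the core of the complex, and NLRP2 and PADI6 are associated with it. The proteins accumulate while the oocyte grows and persist into the cleaving embryo, and mothers lacking Nlrp5, Tle6 or Padi6 produce embryos that stop at early cleavage. PADI6 is also required for the cytoplasmic lattices, the fibrous arrays in which oocytes store proteins. NPM2 is a chaperone of the nucleoplasmin family that binds histones and acts on sperm chromatin after fertilization. Because transcription is silent during meiotic resumption, these mRNAs are a stored pool that can move on or off ribosomes, be kept, or be degraded.

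In oocytes, mRNAs that gain ribosomes at maturation often carry a cytoplasmic polyadenylation element in the 3′ UTR, bound by CPEB1, close to the hexamer that directs polyadenylation. The ends of the 6 annotated transcripts (GENCODE vM21, mm10) are shown because none holds such an element and all but that of Ooep hold the hexamer. The last 30 bases are given 5′ to 3′ with AATAAA in capitals.
Nlrp5 (chr7:23441893-23441922, plus strand): gaatgaAATAAAcacagcatttagaaaagc
Tle6 (chr10:81590905-81590934, minus strand): agttgcgtgtAATAAAacaattgaaatggc
Nlrp2 (chr7:5298547-5298576, minus strand): attggggAATAAAagggaaaacatgcatga
Padi6 (chr4:140727355-140727384, minus strand): agagccAATAAAgcatggtattctgaatgt
Npm2 (chr14:70647302-70647331, minus strand): ctagggccacAATAAAatttgcatgatcag
Ooep (chr9:78376109-78376138, minus strand): aactcaggaccacaggctatgagtagcata

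The hexamer began 20 to 24 bases from the annotated end in 5 of the 6 transcripts. The annotated 3′ UTRs of these 5 were short: 109 bases in Nlrp5, 130 in Tle6, 189 in Nlrp2, 203 in Npm2 and 221 in Padi6, beside a median of 1052 over the 7159 genes with a UTR. Ooep differed, with an annotated UTR of 1446 bases and neither AATAAA nor ATTAAA in the last 40. Farther upstream its UTR held ATTAAA, beginning at bases 418, 493 and 826 after the stop codon. Which end of Ooep is used in these oocytes was not tested. None of the 6 UTRs held TTTTAT or TTTTAAT on the transcript strand, the letters searched for the element, with no match in the whole UTR. Over all 7159 genes, 63.8% held at least one of them, and 26.2% of the 1731 UTRs under 400 bases did. A UTR without a match says only that these letters are missing from the annotated transcript. TTTGTT, which DAZL can bind, was found 4 times in Ooep, within a single run of T and G, and in no other of the 6 genes. It was present in 57.2% of all UTRs.

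All 6 listed genes lay on autosomes as protein-coding genes. Nlrp5 spanned chromosome 7, 23385889 to 23441922 (16 exons in the transcript used), and Nlrp2 chromosome 7, 5298547 to 5351035 (12 exons). Padi6 lay on chromosome 4, 140727355 to 140742643 (16 exons), and Tle6 on chromosome 10, 81590904 to 81601073 (14 exons). Ooep lay on chromosome 9, 78376109 to 78378725 (3 exons), and Npm2 on chromosome 14, 70647302 to 70659244 (9 exons). Npm2 overlaps Xpo7 on the same strand in this annotation, and Nlrp2 overlaps Gm18757 and Gm5065 on the opposite strand. Reads of overlapping genes may not be told apart, since library strandedness is not given in the sources used here. In the promoters of the RefSeq table (GRCm38.p6, from just upstream to just downstream of the start site), CANNTG, searched on both strands, was found in each listed promoter of Padi6, Nlrp5, Ooep and Tle6 and not in that of Nlrp2. It occurs in 72.3% of all 32851 promoters. TAATTG occurred once each in the Padi6 and Ooep promoters (8.00% of all).

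The deposited values were taken as scaled CPM, that is, CPM multiplied by 1 factor per library. How that factor was set is not given in the sources used here. Library totals ran from 968768 to 1052767, and the depth inferred from the smallest steps of the values was 27571236 to 51714900 reads per library. At that depth a value of 10 stood for 282 to 533 reads, so counting error was small against the spread between replicates for genes as abundant as these. The Pearson r of log2 values over all genes was 0.949 to 0.974 for the 2 libraries of a group. The ribosome-bound 4 h replicate 1 stood apart on the second principal component, as did the pair of total RNA 8 h libraries from each other. The oocyte identity of the samples was plain from 11 of 11 oocyte markers listed, whose summed value was 14718 to 15124 in total RNA at 0 h and 15205 to 16371 at 8 h. On ribosomes that sum went from 37564 to 45196 at 0 h to 22584 to 26253 at 8 h. There 4 of the 11 passed as higher and 6 as lower, beside 20.2% and 21.8% of all genes. Of 15 granulosa and cumulus markers, 4 were listed on ribosomes, and Amh and Foxl2 were not among them. Their summed value went from 199 to 207 at 0 h up to 524 to 529 at 8 h on ribosomes, and from 324 to 389 up to 428 to 549.8 in total RNA, over the 6 markers listed there. Serpine2, which encodes a secreted protease inhibitor, made up most of the rise, with a mean of 111 at 0 h and 369 at 8 h on ribosomes and of 197 and 337 in total RNA. Cyp19a1 also passed as higher on ribosomes (34.0 and 85.5), while Fshr and Nr5a2 did not pass. In total RNA Serpine2 was the 1 of 6 called, and the median change of the 6 was -0.086, with Inhba lowest (-0.998, adjusted p 0.4119); these markers are named after their values were seen. Of 11 markers of blood, stroma and endothelium, 2 were listed, at a sum of 155 to 189 at 0 h and 106 to 162 at 8 h on ribosomes. The part of these other cells in the results below was not tested. In pooled oocytes, fewer oocytes holding an mRNA and less of it in each oocyte cannot be told apart.

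All 6 genes were lower on ribosomes at metaphase I than at prophase I, and total RNA of the 5 complex genes showed no change past the threshold. Npm2 fell most, to 0.28 of its prophase level, and it was the only one of the 6 genes that also passed in total RNA. Nlrp5, Nlrp2, Tle6, Padi6 and Ooep went to between 0.54 and 0.66 of their prophase level on ribosomes. When transcript length and GC content were corrected for, all 6 still passed as lower, but sizes and order moved: the log2 changes were -1.18 for Npm2 (-1.82 without the correction), -1.06 for Nlrp2 (-0.79), -0.76 for Nlrp5 (-0.62), -0.63 for Ooep (-0.61), -0.53 for Padi6 (-0.87) and -0.39 for Tle6 (-0.89). For Nlrp5, Nlrp2, Tle6, Padi6 and Npm2, the ribosome-bound change was larger than the total RNA change by a test of that difference. These comparisons ask which stored mRNAs change in ribosome-bound level, relative to other mRNAs, while the oocyte moves from prophase arrest to the first metaphase spindle. Values are scaled per library, so a lower value need not mean less of that mRNA on ribosomes in each oocyte.

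**Figure D1:**
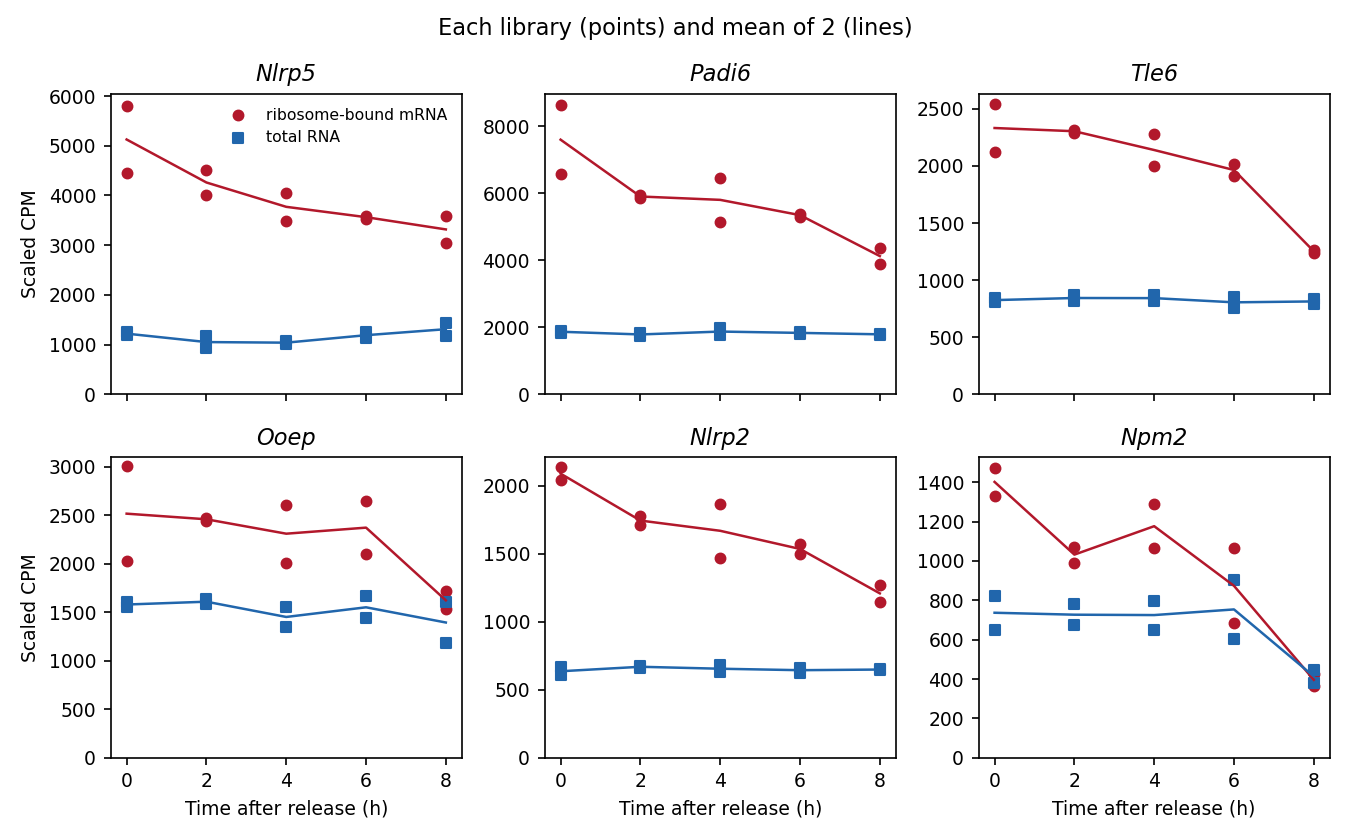
Scaled CPM of each listed gene in every library against time after release (h); points are libraries (red circles ribosome-bound, blue squares total RNA) and lines join the means of 2. Ribosome-bound values were lower at 8 h than at 0 h in both libraries of all 6 genes, while total RNA lines were near level in the 5 complex genes and dropped at 8 h for Npm2.

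The core genes are described in turn. Nlrp5 encodes a large leucine-rich-repeat protein that the complex cannot form without. Its ribosome-bound values were 5808 and 4445 at 0 h, 4014 and 4509 at 2 h, 3496 and 4047 at 4 h, 3532 and 3596 at 6 h, and 3042 and 3593 at 8 h. The libraries at 4, 6 and 8 h lay below both at 0 h, and those at 2 h overlapped them. In total RNA Nlrp5 stood at 1254 and 1187 at 0 h, 1178 and 924 at 2 h, 1072 and 1006 at 4 h, 1123 and 1255 at 6 h, and 1177 and 1443 at 8 h. These groups overlapped between 0 and 8 h. The log2 change at 8 h was -0.62 ± 0.15 on ribosomes (limma standard error, here and below; adjusted p 0.002424) and 0.10 ± 0.13 in total RNA (adjusted p 0.7477). A pseudogene, Nlrp5-ps, has a row of its own (58.6 and 67.0 on ribosomes at 0 h, 27.1 and 31.4 at 8 h), so reads of Nlrp5 may have been split with it.

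Tle6 encodes a Groucho-family protein without the usual co-repressor role, held in the complex with NLRP5 and OOEP. It read 2545 and 2119 on ribosomes at 0 h, 2316 and 2292 at 2 h, 1999 and 2280.2 at 4 h, 2014 and 1914 at 6 h, and 1239 and 1266 at 8 h. The level was close to that of prophase through 4 h and dropped between 6 and 8 h. In total RNA its values stayed between 758 and 869.7 in all 10 libraries. The change at 8 h was -0.89 ± 0.13 on ribosomes (adjusted p 3.737e-05) and -0.02 ± 0.11 in total RNA (adjusted p 0.9508). With the length and GC correction the ribosome-bound change was -0.39 (adjusted p 0.0173).

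Ooep encodes a small KH-domain protein of the core. Ribosome-bound Ooep was 3010.1 and 2025 at 0 h, 2476 and 2443 at 2 h, 2012 and 2609.6 at 4 h, 2643 and 2104 at 6 h, and 1715 and 1533 at 8 h. The 2 libraries at 0 h were far apart, all earlier groups overlapped, and both libraries at 8 h were the lowest of the 10. Total Ooep was 1609.6 and 1552 at 0 h and 1605 and 1185 at 8 h, with 1352 to 1665 between. The ribosome-bound change was -0.61 ± 0.17 (adjusted p 0.009542), and it rested on single libraries: without 0 h replicate 1 it was -0.32 (adjusted p 0.153), and without 8 h replicate 2 it was -0.53 (adjusted p 0.0774). The total RNA change was -0.20 ± 0.13 (adjusted p 0.4441).

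Of the associated genes, Padi6 encodes a peptidylarginine deiminase family protein of the lattices. Its ribosome-bound values were 8636 and 6569 at 0 h, 5855 and 5956 at 2 h, 5142 and 6469 at 4 h, 5391 and 5308 at 6 h, and 3893 and 4361 at 8 h. Both libraries of every later time lay below both at 0 h. In total RNA all 10 libraries read between 1735 and 1968. Both there at 8 h (1779 and 1802) lay below both at 0 h (1837 and 1898), as for 24.2% of all genes. The change at 8 h was -0.87 ± 0.15 on ribosomes (adjusted p 0.0001555) and -0.06 ± 0.10 in total RNA (adjusted p 0.7967). With the length and GC correction the ribosome-bound change was -0.53 (adjusted p 0.00641).

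Nlrp2 encodes another protein of the NLRP family, maternal loss of which impairs early embryos. It stood at 2042 and 2133 on ribosomes at 0 h, 1776 and 1709 at 2 h, 1865 and 1470.0 at 4 h, 1501 and 1567 at 6 h, and 1273 and 1143 at 8 h. Its prophase libraries were close together, and every later library was lower than both. Total Nlrp2 ran from 606 to 681 over 10 libraries. The changes at 8 h were -0.79 ± 0.13 on ribosomes (adjusted p 0.000164) and 0.03 ± 0.12 in total RNA (adjusted p 0.9223).

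Npm2 is the histone chaperone gene set beside the complex. Its ribosome-bound values were 1331 and 1473 at 0 h, 1072 and 992 at 2 h, 1064 and 1289.8 at 4 h, 1065 and 683 at 6 h, and 367 and 425 at 8 h. All libraries after 0 h were lower than both prophase libraries, and the pair at 8 h lay well under every other. Total Npm2 read 824 and 649.9 at 0 h, 779 and 675 at 2 h, 652 and 799 at 4 h, 605 and 903 at 6 h, and 447 and 381 at 8 h. In total RNA the 8 h pair was below all the rest. The change at 8 h was -1.82 ± 0.17 on ribosomes (adjusted p 4.494e-07) and -0.83 ± 0.17 in total RNA (adjusted p 0.00765). The total RNA call was lost without total 0 h replicate 1 (-0.65, adjusted p 0.221) and when transcript length and GC content were corrected for (-0.51, adjusted p 0.0811).

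On ribosomes at 8 h against 0 h, limma called 6 of 6 listed genes lower, where 42.1% of the 7543 genes passed, 21.8% as lower and 20.2% as higher. Both 8 h libraries lay below both prophase libraries for 6 of 6 genes, and for 36.8% of all genes. That count was 3 of 6 at 2 h (23.2% of all genes), 4 at 4 h (26.7%) and 5 at 6 h (33.0%). The median change of the 6 was -0.83, beside -0.06 over all genes. In the ranking of all changes from the lowest up, Npm2 stood at the 2.80th percentile. Tle6, Padi6, Nlrp2, Nlrp5 and Ooep stood between the 17.7th and the 27.5th. Apart from Npm2, these changes were of moderate size for this comparison.

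Before 8 h, calls on ribosomes came at 6 h. At 2 h limma called 0 of 6 genes (1.47% of all genes passed), and 2 of the 6, Padi6 and Npm2, had an unadjusted p under 0.05. At 4 h it again called 0 of 6 (15.7% of all genes), with 3 of the 6, Nlrp5, Nlrp2 and Padi6, at an unadjusted p under 0.05. Leaving out ribosome-bound 0 h replicate 2 raised the 4 h count to 2, as did the length and GC correction, and leaving out 4 h replicate 2 raised it to 1. At 6 h, 4 of 6 passed as lower, where 27.9% of all genes passed and 13.3% as lower. They were Npm2 (-0.71 ± 0.17, adjusted p 0.005763), Nlrp5 (-0.51 ± 0.15, 0.01395), Padi6 (-0.49 ± 0.15, 0.01789) and Nlrp2 (-0.44 ± 0.13, 0.01953). Tle6 (-0.24 ± 0.13, adjusted p 0.1722) and Ooep (-0.07 ± 0.17, adjusted p 0.8124) did not pass at 6 h. That count of 4 was 2 without 0 h replicate 1, 1 without 6 h replicate 1, 0 without 6 h replicate 2, and 2 with the length and GC correction. Without 0 h replicate 1 the change was -0.32 for Nlrp5 and -0.30 for Padi6, and without 6 h replicate 2 it was -0.39 for Npm2; these values lost their calls. Nlrp2 kept a change of -0.48 to -0.41 in these fits, although its call was lost in 3 of 4. The length and GC correction gave -0.27 for Padi6 (adjusted p 0.162) and -0.38 for Npm2 (0.104). The 4 comparisons share the 0 h libraries, so their changes are not independent of each other.

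Between neighbouring times on ribosomes, calls came only in the last interval. From 6 to 8 h the log2 change was -1.11 ± 0.17 for Npm2 (adjusted p 0.005813) and -0.65 ± 0.13 for Tle6 (0.02172), so that 2 of 6 passed where 0.689% of all genes did. Ooep, at -0.54 ± 0.17 (adjusted p 0.1658), and Nlrp5, at -0.11 ± 0.15 (0.8141), did not pass over these hours. From 2 to 4 h (0.729% of all genes) and from 4 to 6 h (0.0663%), limma called 0 of 6, and at an unadjusted p under 0.05 there were 0 and 1 (Npm2 from 4 to 6 h, -0.46 ± 0.17). With replicate 1 of either 6 h or 8 h left out, 0 of the 6 passed, and with replicate 2 of either left out, 1 did. Tle6 lost its call in each of these 4 fits while its change stayed between -0.69 and -0.61. The change of Npm2 was -0.79 without 6 h replicate 1 (adjusted p 0.204) and between -1.43 and -1.002 in the other 3. With a replicate block Tle6 no longer passed (adjusted p 0.0503). It did not pass with the length and GC correction either (-0.47, adjusted p 0.103).

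In total RNA, Npm2 was the 1 of 6 called at 8 h, where 3.97% of the 7917 genes passed, 3.02% as lower and 0.947% as higher. The other 5 changes lay between -0.20 (Ooep) and 0.10 (Nlrp5), and their 95% intervals reached from -0.47 to 0.37. The median of the 6 was -0.04, beside 0.01 over all genes. At 2 and 4 h limma called 0 of 6 and 0.0% of all genes, and at 6 h 0 of 6 and 0.202%. At none of these times did any of the 6 reach an unadjusted p under 0.05. A missed threshold does not show that levels were equal.

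**Figure D2:**
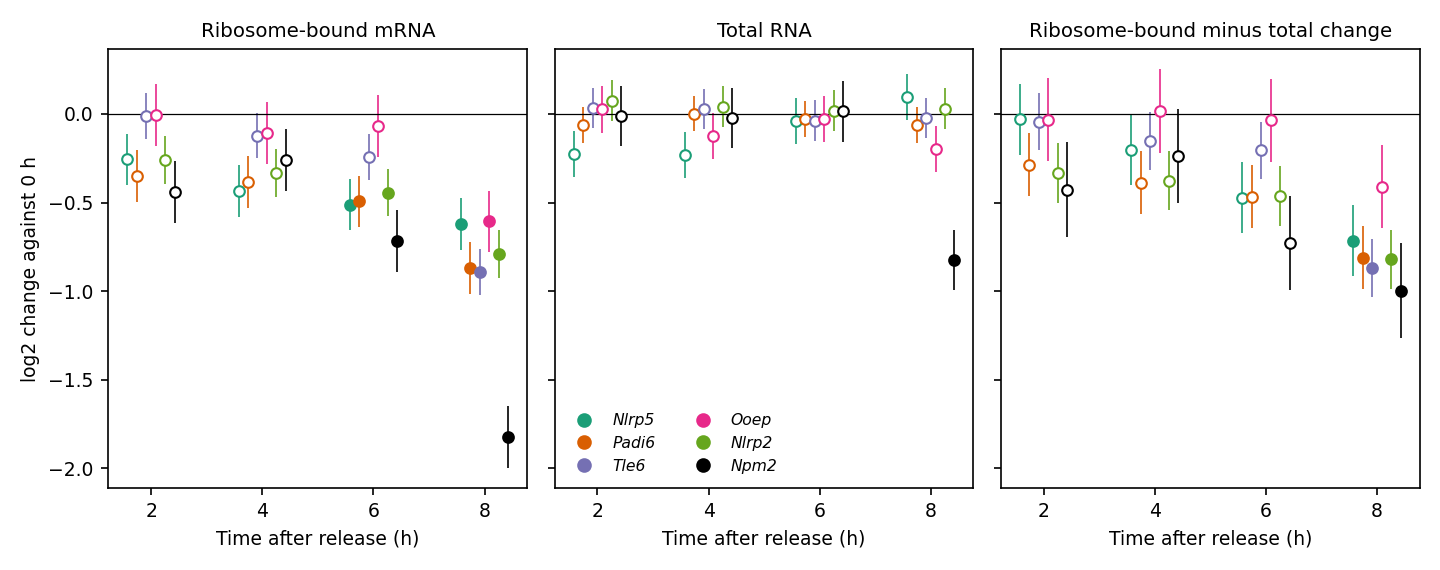
Log2 change against 0 h at 2, 4, 6 and 8 h for ribosome-bound mRNA, total RNA and their difference; points are limma estimates, bars are 1 standard error, and filled points passed an adjusted p of 0.05. On ribosomes 4 of 6 genes were filled at 6 h and 6 at 8 h, and in total RNA only Npm2 at 8 h was.

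The difference between the ribosome-bound and the total RNA change was tested as an interaction over the 7346 shared genes. At 8 h, 5 of 6 genes passed as lower, where 21.0% of all genes passed, 9.43% as lower and 11.6% as higher. The differences were -0.997 ± 0.27 for Npm2 (adjusted p 0.009286), -0.87 ± 0.16 for Tle6 (0.0004545), -0.82 ± 0.17 for Nlrp2 (0.001082), -0.81 ± 0.18 for Padi6 (0.00188) and -0.72 ± 0.20 for Nlrp5 (0.01281). Ooep, at -0.41 ± 0.24, did not pass (adjusted p 0.2243, with a 95% interval from -0.90 to 0.07). Tle6, Nlrp2 and Padi6 passed under all alternatives that were run, although the length and GC correction moved Tle6 to -0.55. Nlrp5 and Npm2 did not. Nlrp5 lost its call without ribosome-bound 0 h replicate 1 (-0.52), ribosome-bound 8 h replicate 1 (-0.60), total 0 h replicate 2 (-0.68) or total 8 h replicate 2 (-0.57), with an adjusted p between 0.0511 and 0.0744. Npm2 lost its call without total 0 h replicate 2 (-0.83, adjusted p 0.0613) or total 8 h replicate 1 (-0.88, 0.0512), and with the length and GC correction (-0.67, 0.0633). Ooep passed without ribosome-bound 0 h replicate 2 (-0.70, adjusted p 0.0313). The count of 5 was 3 without total 0 h replicate 2.

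At the earlier times the interaction called 0 of 6 in limma: at 2 h (0.0953% of all genes passed), at 4 h (5.1%) and at 6 h (11.7%). The numbers with an unadjusted p under 0.05 were 0, 2 and 4. Without ribosome-bound 0 h replicate 2 the count at 4 h became 1 and at 6 h 2. The count at 6 h was 1 without ribosome-bound 6 h replicate 1, without total 6 h replicate 1, or with the length and GC correction.

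**Figure D3:**
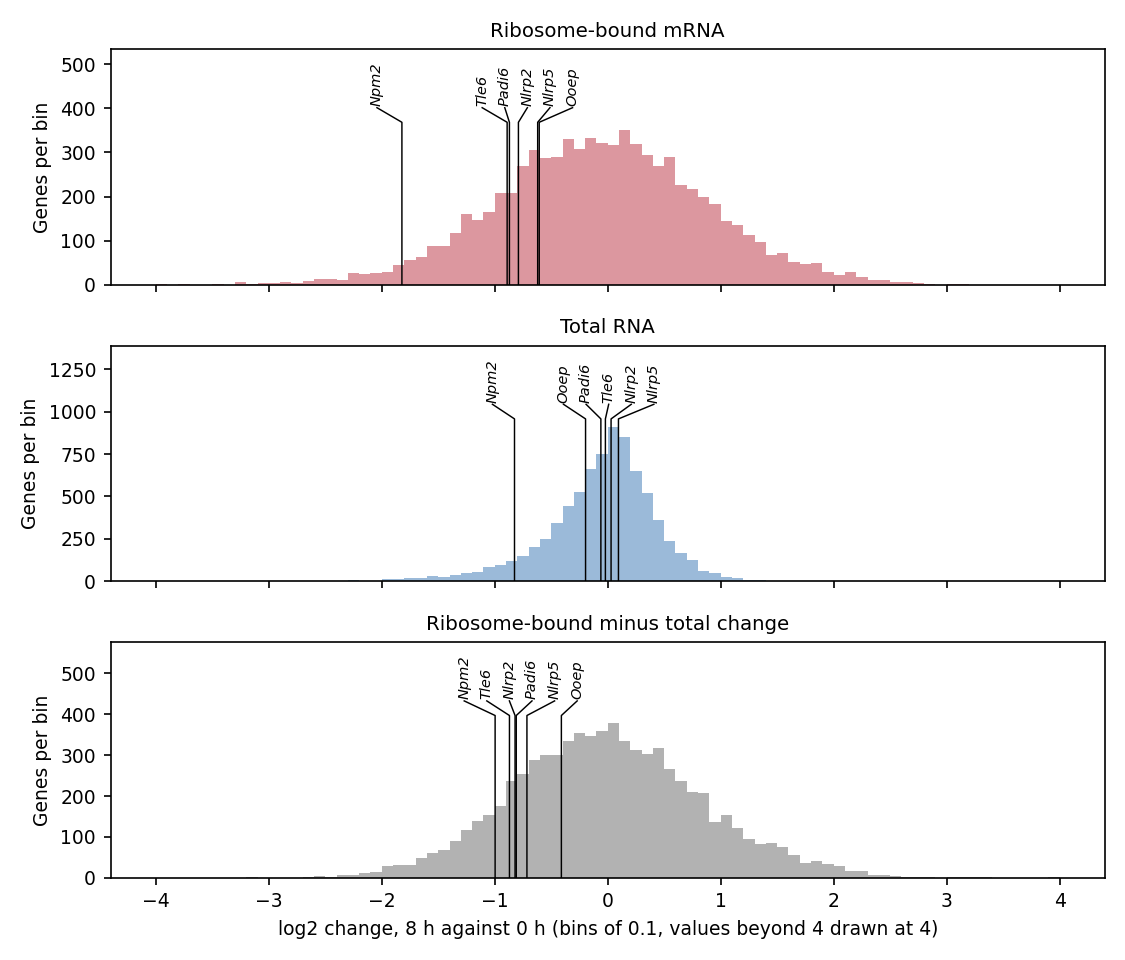
Histograms of the log2 change at 8 h against 0 h over all tested genes (bins of 0.1) for ribosome-bound mRNA, total RNA and their difference, with a line at each of the 6 genes. The 6 lines lie left of 0 on ribosomes, from -1.82 to -0.61, and the 5 complex genes lie within 0.20 of 0 in total RNA.

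Nlrp5, Padi6, Nlrp2 and Tle6 had some of the highest ribosome-bound values relative to total RNA in the prophase oocyte. The ratio of ribosome-bound to total value at 0 h was 4.16 for Nlrp5, 4.03 for Padi6, 3.28 for Nlrp2 and 2.81 for Tle6. These stood at the 99.8th, 99.8th, 99.3rd and 98.8th percentile of 7346 genes. Npm2 had a ratio of 1.91 (94.0th percentile) and Ooep 1.56 (87.9th). By 8 h the ratios were 2.54 for Nlrp5, 2.30 for Padi6, 1.86 for Nlrp2, 1.54 for Tle6, 1.18 for Ooep and 0.96 for Npm2. Nlrp5 was still at the 99.2nd percentile, whereas Npm2 was at the 59.7th. The 2 tables were normalised separately, so a ratio of 1 has no fixed meaning, and ratios and percentiles are given as a description without a test.

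**Figure D4:**
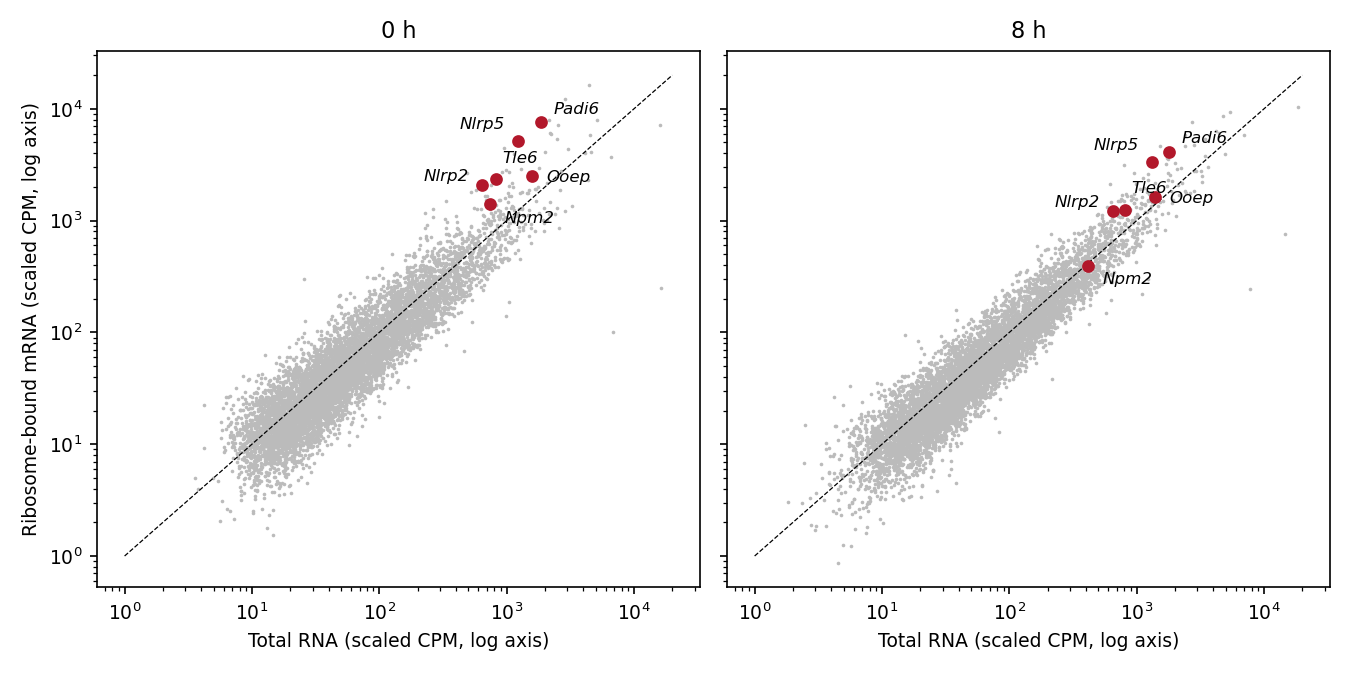
Ribosome-bound against total value (scaled CPM, both axes logarithmic, means of 2 libraries) at 0 h and 8 h for the 7346 genes in both tables (grey) and the 6 genes described (red); the dashed line marks equal values. The genes lie above the line at 0 h, with ratios from 1.56 to 4.16, and closer to it at 8 h, where Npm2 is at 0.96.

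Together the 5 complex genes made up 2.19% and 1.77% of the listed ribosome-bound total in the prophase libraries. That share was 1.43% to 1.74% in the libraries from 2 to 6 h, and 1.11% and 1.13% at 8 h. In total RNA they made up 0.613% and 0.616% at 0 h and 0.581% and 0.578% at 8 h. Shares within a library can move through other genes, so they do not give an amount per oocyte.

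Per kilobase of the annotated transcript, the order of ribosome-bound levels at 0 h was Padi6 (3259 ± 626, SD, n = 2, here and in the next sentences), Nlrp5 (1461 ± 275), Npm2 (1406 ± 101), Ooep (1177 ± 326), Tle6 (1157 ± 149) and Nlrp2 (613 ± 19). Neighbours from Nlrp5 to Tle6 did not differ beyond their spread, while Padi6 was above and Nlrp2 below the rest. At 8 h the order of levels was Padi6 (1769 ± 142), Nlrp5 (946 ± 111), Ooep (759.6 ± 60.5), Tle6 (622 ± 9.3), Npm2 (398 ± 41) and Nlrp2 (355 ± 27). Npm2 had moved down to the side of Nlrp2, within about 1 SD of it. The per-length level of Ooep depends on its long annotated UTR.

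Over the 10 ribosome-bound libraries, the profiles of the 6 genes correlated pairwise with a Pearson r of log2 values between 0.56 (Ooep with Nlrp2) and 0.93 (Tle6 with Npm2, and Nlrp5 with Padi6). The libraries share their time order, so these values are a description. Among 5324 genes with a mean of at least 20, the profile most like that of Npm2 was Mbl2, a mannose-binding lectin (r 0.98), followed by Zcrb1 and Dppa3. Nearest to Tle6 were the ribosomal protein gene Rps13 (r 0.98), Clta, a clathrin light chain, and Rps3. Pearson r takes no account of the size of a change. At 8 h Rps13 had changed by -3.17 (mean 34.3 to 2.90), Rps3 by -1.76 (29.5 to 8.08) and Clta by -1.56, beside -0.89 for Tle6. Nearest to Nlrp5 were Cct2, a chaperonin subunit (r 0.97), Eif3a and Synj1. Cct2 was also among the 3 nearest to Padi6, after Mtmr14 and Pfdn5. Nlrp2 was most like Pacsin1, Copz1 and Nploc4 (r 0.97 to 0.98), and Ooep most like Fbxw19, Bysl and Oas1c (r 0.93 to 0.94).

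Other genes reported to bind the complex or to belong to the Nlrp family included genes that rose and genes that fell. Of 23 on this list, 15 were listed in the tables. On ribosomes at 8 h 1 rose and 4 fell, where 20.2% of all genes passed as higher and 21.8% as lower. The median change was -0.04 beside -0.06 over all genes. Zbed3, a reported partner of the complex, rose from 7128 ± 587 to 10305 ± 833 (SD, n = 2; log2 change 0.53 ± 0.12, adjusted p 0.002243). Uhrf1, which maintains DNA methylation with DNMT1 and is cytoplasmic in oocytes, fell from 2097 ± 307 to 876 ± 42 (-1.25 ± 0.13, adjusted p 1.451e-06). Nlrp14, a relative of Nlrp5 and Nlrp2, fell from 12348 ± 55 to 7578 ± 18 (-0.70 ± 0.12, adjusted p 0.0002237). The other genes that fell, Nlrp9b (-0.70 ± 0.12) and Ywhah (-0.82 ± 0.28), are named outside the rule, after their values were seen. In limma 0 of the 6 listed Nlrp4 genes passed, with changes from -0.04 to 0.39 and 1 at an unadjusted p under 0.05. These copies are similar in sequence, so their reads may have been split.

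In total RNA limma called 0 of these 15 genes, with 2 at an unadjusted p under 0.05. In the interaction, 0 rose and 4 fell, where 11.6% of all genes passed as higher and 9.43% as lower. Those that fell were Uhrf1 (-1.44 ± 0.17), Nlrp9b (-1.05 ± 0.19), Ube2d3 (-0.68 ± 0.23) and Nlrp14 (-0.65 ± 0.15). Of these, Nlrp9b and Ube2d3 are again named after their values were seen. Zbed3 did not pass there (0.32 ± 0.17, adjusted p 0.1867).

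Paralogues outside the Nlrp family moved in both directions. Of 16, 7 were listed on ribosomes, and at 8 h 2 rose and 1 fell, where 20.2% of all genes passed as higher and 21.8% as lower. Npm1, the widely expressed nucleolar relative of Npm2, rose from 239 ± 32 to 672 ± 102 (1.48 ± 0.17, adjusted p 2.451e-06), with 652 ± 66 and 630 ± 44 in total RNA. Npm1 thus gained on ribosomes over the same hours in which Npm2 fell, although no test compared the pair. Khdc1b, a KH-domain gene related to Ooep and Khdc3, rose from 384 ± 43 to 662 ± 83 (0.78 ± 0.15, adjusted p 0.0005535). Dppa5a, of the same KH-domain group, fell from 34.8 ± 5.4 to 8.06 ± 2.74 (-2.01 ± 0.34, adjusted p 0.0001779). In total RNA limma called 0 of the 9 listed paralogues, with 0 at an unadjusted p under 0.05. Npm1 (1.53 ± 0.22) and Khdc1b (0.92 ± 0.21) also passed in the interaction as higher, and Dppa5a (-1.56 ± 0.48) as lower.

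**Figure D5:**
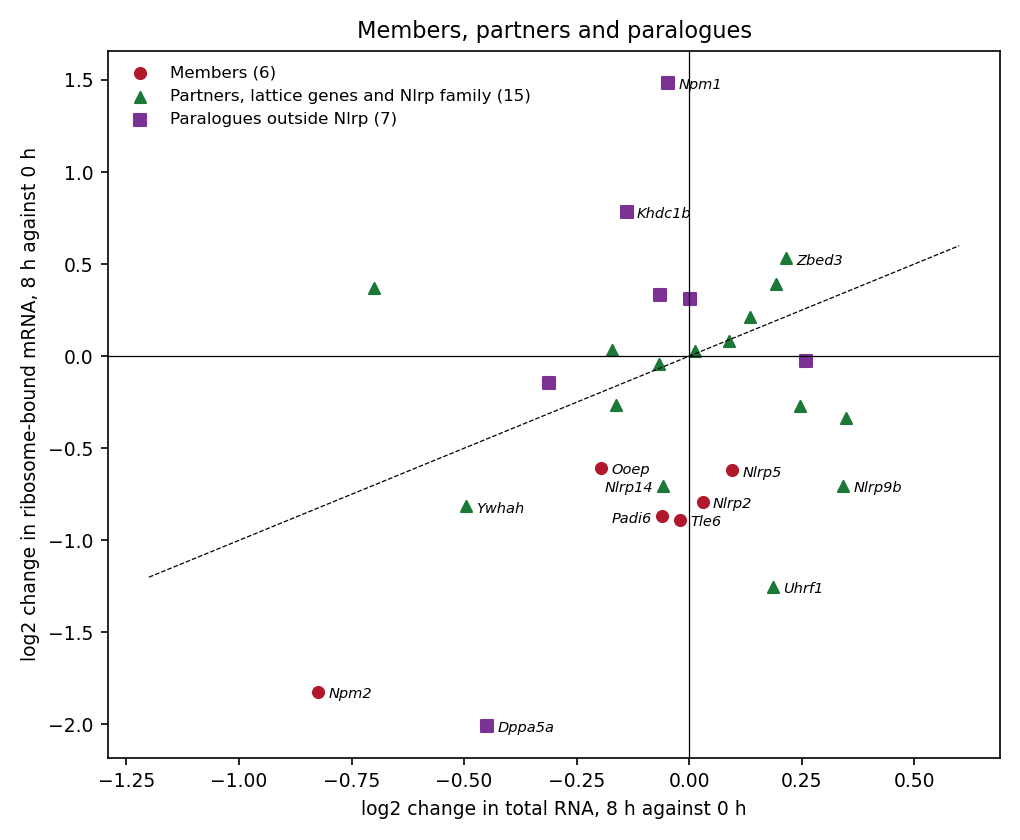
Log2 change at 8 h against 0 h in total RNA (horizontal) and in ribosome-bound mRNA (vertical) for the 6 genes described (red circles), 15 partners and Nlrp relatives (green triangles) and 7 paralogues (purple squares); the dashed line marks equal changes. Uhrf1 at -1.25 and Nlrp14 at -0.70 lie with the complex genes, and Npm1 at 1.48, Khdc1b at 0.78 and Zbed3 at 0.53 lie above 0.

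Unlike the 6 genes, Zbed3 and Khdc1b carry TTTTAT within their last bases, and both rose. Uhrf1 and Npm1 hold it farther from the annotated end, and Uhrf1 fell while Npm1 rose. The part of these letters in the changes was not tested. The sequences are shown to set beside the ends given above, and these genes were picked after their values were seen. Capitals mark the element in either form, the hexamers AATAAA and ATTAAA, and TTTGTT; these overlap where they run together.
Zbed3, last 30 bases (chr13:95337812-95337841, plus strand): tttttTTTTAATAAAcTTTTATttatctgc
Khdc1b, last 30 bases (chr1:21386344-21386373, plus strand): tctttggaacATTAAAgTTTGTTTTATtta
Nlrp14, last 30 bases (chr7:107198064-107198093, plus strand): gtggaggttgagaaagtaaagcaaagcaca
Uhrf1, upstream stretch with 2 adjacent TTTTAT (chr17:56323205-56323228, plus strand): tatgggtttTTTTATTTTTATttt

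The nearest TTTTAT or TTTTAAT began 14 bases from the end in Zbed3, 9 in Khdc1b, 236 in Npm1 and 267 in Uhrf1, and Nlrp14 had none. In Npm1 it was a TTTTAAT that ran into an AATAAA beginning 232 bases from the annotated end. The last 40 bases of Npm1 held no hexamer, whereas in Uhrf1 the nearest hexamer began 20 bases from the end. Over all genes with an annotated UTR, the 4568 with TTTTAT or TTTTAAT had a median ribosome-bound change at 8 h of 0.20, and 13.1% of them were called lower. The 2591 without had a median of -0.57, and 38.9% were called lower. Among the 1278 genes that had no match and a UTR under 400 bases, as Nlrp5, Tle6, Nlrp2, Padi6 and Npm2 do, the median was -0.68 with quartiles at -1.23 and -0.04, and 43.9% were called lower. The changes of Nlrp5, Nlrp2, Tle6 and Padi6 (-0.62 to -0.89) lay within those quartiles and that of Npm2 (-1.82) below them. The 453 genes with a match and a UTR under 400 bases had a median of 0.17, and 15.9% were called lower. In total RNA the medians were 0.06 with and -0.10 without a match, and 0.02 and -0.17 among UTRs under 400 bases. UTR length, base composition and expression differ between these classes of genes, and their part was not tested.

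Histone chaperones and sperm chromatin factors, the functional neighbours of Npm2, also moved in both directions. Of 22, 19 were listed on ribosomes, and 8 rose and 3 fell at 8 h, where 20.2% of all genes passed as higher and 21.8% as lower. The median change was 0.35 beside -0.06 over all genes. The histone H3.3 gene H3f3b rose from 53.0 ± 7.3 to 153 ± 19 (1.51 ± 0.19, adjusted p 8.823e-06), and the nucleosome assembly gene Nap1l1 from 106 ± 21 to 231 ± 27 (1.13 ± 0.18, adjusted p 9.608e-05). Its relative Nap1l4 fell (-1.08 ± 0.17), and so did the nucleolin gene Ncl, from 718 ± 2.7 to 329 ± 17 (-1.13 ± 0.14). In total RNA limma called 0 of the 19, with 2 at an unadjusted p under 0.05, so that of these chromatin genes only Npm2 was called there. In the interaction 3 rose and 2 fell (11.6% and 9.43% of all genes).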

How the data were processed

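Each of the 2 deposited tables, one per RNA kind, holds a signal made by the authors and taken here as scaled CPM. The submitters' processing notes name mm10 and, among the tools, HISAT2, HTSeq, Trimmomatic 0.36, limma and edgeR; how the CPM were scaled is not given in the sources used here. Groups followed titles and design, because the description field calls the total RNA samples ribosome-bound too. All values were whole multiples of a library's smallest step within 0.01 of a read, which gave the inferred depth. Values were tested as log2(value + 1) in limma 3.58.1 (R 4.3.3) with a mean-variance trend, per RNA kind over all times. The filter, a minimum of 1 in no fewer than 2 libraries, kept every gene. Shares of all genes refer to the genes listed in the deposit, and a gene that is not listed may still be expressed. The interaction was fitted on the shared genes. All tests were two-sided, with Benjamini-Hochberg adjustment over all genes of a comparison and a threshold of 0.05. Fold changes are on the log2(value + 1) scale.

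The members and gene lists were chosen with earlier results of these data known. Named list genes are up to 2 per direction with the smallest p on ribosomes at 8 h, and up to 1 per direction in total RNA. UTRs came from GENCODE vM21 (5839 of 8114 gene IDs matched in the same version, 2264 in another, 11 not), from the transcript with the longest coding sequence, and promoters from RefSeq, where Npm2 had no entry. On simulated data for 8 h against 0 h, 100 genes were raised by a log2 of 1 and 100 were lowered by a log2 of 1.5. Of the raised genes limma recovered 38% on ribosomes (7543 genes), 44% in total RNA (7917) and 27% in the interaction (7346). Of the lowered genes it recovered 58%, 73% and 46%. No other genes were changed, and limma called 99 on simulated ribosome-bound data, beside 3173 in the real data. With fewer changed genes the adjusted threshold is harder to reach, so these shares do not give the power of the tests above.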

Additional observations from a re-analysis of the deposited data

Results flagged for a closer look

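The change at 8 h against 0 h differed between ribosome-bound mRNA and total RNA for 5 genes, by the interaction test in limma given above. The ribosome-bound change minus the total RNA change was -0.997 for Npm2, -0.87 for Tle6, -0.82 for Nlrp2, -0.81 for Padi6 and -0.72 for Nlrp5. In the first of these both RNA kinds were lower at 8 h, and in the other 4 only the ribosome-bound change passed its own threshold. Groups of 2 libraries were too small to look for single outlying values.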

How the results depend on the processing

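Each comparison was refitted under 7 alternatives and without each library of the groups compared. The edgeR test listed among the alternatives was not run. The deposited values were taken as scaled CPM, and reads inferred from their steps were not taken as counts. With a lone library left in a group, that library was assumed to vary like the others. The count of 6 genes on ribosomes at 8 h was 5 to 6 when single libraries were left out and 6 otherwise. Counts left by single libraries ran from 0 to 2 on ribosomes at 4 h, 0 to 3 at 6 h, 0 to 1 from 6 to 8 h and in total RNA at 8 h, and in the interaction from 0 to 1 at 4 h, 0 to 2 at 6 h and 3 to 6 at 8 h. Corrected for length and GC content, the counts were 2 genes at 4 h and 2 at 6 h on ribosomes, 1 from 6 to 8 h, 0 in total RNA at 8 h and 1 in the interaction at 6 h. Over all genes of the total RNA comparison at 8 h this correction gave 175 lower and 131 higher, beside 239 and 75 without it. The cause was not tested. The labels do not say what the A and B letters stand for. Deviations of same-lettered libraries correlated across genes between -0.11 and 0.11. Such values cannot show whether these libraries shared a pool or culture. In the interaction, ribosome-bound and total RNA libraries were not paired. A replicate block left 1 gene from 6 to 8 h (Npm2) and changed no other call of these genes.

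Values near 0 in total RNA at 8 h changed sign without passing: Tle6 was 0.0053 after centring on library medians, and 0.16 with the length and GC correction, which gave -0.017 for Nlrp2 and 0.074 for Padi6. Leaving out single libraries gave -0.055 to 0.014 for Tle6, -0.037 to 0.10 for Nlrp2, -0.052 to 0.24 for Nlrp5 and -0.41 to 0.023 for Ooep. For the 66 uncalled values at other times, 71 of 798 refits differed in sign and 11 passed the threshold. With 2 libraries per group, the spread between replicates and not read depth limits these comparisons.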

Other observations

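Other maternal-effect genes, which oocytes supply to the embryo and whose loss in the mother harms it, went both ways. Of 39, 33 were listed, and on ribosomes at 8 h 13 rose and 9 fell (20.2% and 21.8% of all genes), with a median change of 0.20 beside -0.06 over all genes. Tcl1, a coactivator of AKT, rose from 112 ± 17 to 693 ± 0.64 (SD, n = 2; log2 change 2.63 ± 0.15, limma adjusted p 2.984e-09), and Cdh1, E-cadherin, rose by 0.94 ± 0.14. Uchl1, a ubiquitin hydrolase, fell from 2156 ± 253 to 873 ± 92 (-1.30 ± 0.14), and Kdm1b, a histone demethylase needed for maternal imprints, from 692 ± 67 to 279 ± 18 (-1.30 ± 0.14). Kdm1b stood at 209 ± 1.6 and 209 ± 28 in total RNA. In total RNA 1 of the 33 rose, Tcl1 (0.98 ± 0.13, adjusted p 0.0002854), and 3 fell, with Zar1l at -1.57 ± 0.19 (adjusted p 9.845e-05). Zar1l, like Npm2, was lower in both RNA kinds (-1.81 ± 0.29 on ribosomes). Its difference between them was -0.24 ± 0.36 (adjusted p 0.6775).

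Of 12 regulators of oocyte transcription, several of which act on genes of the complex during growth, 10 were listed on ribosomes. At 8 h 1 rose and 4 fell, where 20.2% of all genes passed as higher and 21.8% as lower. Ybx2 (also called MSY2, an RNA-binding protein that stores mRNA) fell from 477 ± 63 to 185 ± 19 (-1.36 ± 0.15, adjusted p 2.704e-06), and Lhx8 from 386 ± 38 to 150 ± 17 (-1.35 ± 0.16, adjusted p 3.756e-06). Tbpl2 rose from a low 3.52 ± 0.12 to 15.3 ± 0.16 (1.85 ± 0.52, adjusted p 0.008324). In total RNA limma called 0 of the 8 listed there, with 1 at an unadjusted p under 0.05.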
